A study of Caenorhabditis elegans with 24 samples.

Results

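The 7 genes described here, cpr-1, cpr-2, cpr-3, cpr-4, cpr-5, cpr-6 and cpr-8, encode cysteine proteases of the cathepsin B family in the nematode Caenorhabditis elegans. They were chosen by name, from their WormBase symbols and identifiers, and make up 7 of the 46904 gene identifiers in the tables. The annotation used here holds 8 cpr symbols, and the remaining one, cpr-9, is described with the related cathepsins.

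Cathepsin B proteases share the papain fold, are made as inactive precursors and are activated by removal of a propeptide in the acidic lysosome or after secretion. They cut proteins internally and also trim them from the carboxyl end, and cystatins inhibit them. In the worm, several cpr genes are known from the intestine, the organ that takes up and digests food bacteria. cpr-1 was described as a gut-specific cysteine protease gene, and cpr-4 encodes a secreted cathepsin B that has been studied as a factor released by irradiated animals.

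RNA came from the whole body of N2, the wild type, and of CF1041, a strain carrying daf-2(e1370), on adult days 1, 4, 7 and 11, with 3 libraries for each strain and day and 24 libraries in all. The daf-2 gene encodes a receptor for insulin-like peptides, and the e1370 mutation weakens it and lengthens life. Both strains were started from bleached embryos kept for 16 h at 20 °C in S-basal, were fed OP50 bacteria, and received 50 µM FUDR, a DNA synthesis inhibitor that keeps progeny from developing, from the L4 stage on. All 8 groups therefore carry the FUDR treatment, and no label tells whether each library had its own culture; if not, the p-values reflect technical spread between libraries.

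Each library held between 20660999 and 32655703 expected counts, and between 18073 and 20652 genes had a value above 0. Ribosomal RNA took 3.899% to 14.553% of the counts, and 7.923% to 14.553% in the libraries numbered 3. Markers of intestine, body wall muscle, pharynx, neurons, hypodermis, germline and sperm were all detected, and no marker was at 0 in every library of any group. Libraries with the same number deviated together from their group means, so their numbers can be read as pairs. The main test did not use these pairs, and the result with library number as a block is given where it changes a call. With the block, 1615 genes were called between strains on day 11 in place of 659, so a gene not called in the main test can pass with it. Some libraries stood apart for members of the family: in N2 day 7 library 3, cpr-1 was at 29.8 CPM against 266 and 253 in its group, and cpr-4 at 42.8 CPM against 194 and 209. In N2 day 1 library 1, cpr-1 was at 38.1 CPM against 7.03 and 11.3, and cpr-5 at 77.6 CPM against 26.1 and 16.8. Library 1 was the highest of its group for cpr-1 in 8 of 8 groups and for cpr-5 in 7.

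Levels are given in CPM, the counts of a gene scaled to a common library total with edgeR's TMM factors. Fold changes are log2 values ± SE from edgeR's quasi-likelihood test over 16698 genes, and a gene was called at a Benjamini-Hochberg adjusted p below 0.05. All 7 genes passed the filter on low counts and were tested. Their expected counts were whole numbers in all 24 libraries, so the deposited values show no read divided between one of these genes and another gene.

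Of the 7 genes, 6 lie on chromosome V and cpr-6 on X (WBcel235). On V, cpr-5 spans 1132598 to 1134036 on the minus strand in 3 exon blocks and cpr-8 spans 1134602 to 1139182 on the plus strand in 6. These 2 genes are neighbours that point away from each other with 565 bases between them. Further along V are cpr-4, at 6614674 to 6615851 on the plus strand with 2 exon blocks, and cpr-1, at 11975551 to 11976756 on the plus strand with 3. cpr-3 lies at 15296834 to 15298700 on the minus strand with 4 exon blocks, and cpr-2 at 16532936 to 16534100 on the minus strand with 3. cpr-6 occupies 6607207 to 6609045 of X on the plus strand, with 8 exon blocks. An exon of cpr-4 overlaps the piRNA gene 21ur-14330 on the other strand, and whether the counting used strand is not given in the sources used here, so reads of this pair might not be told apart.

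**Figure D1:**
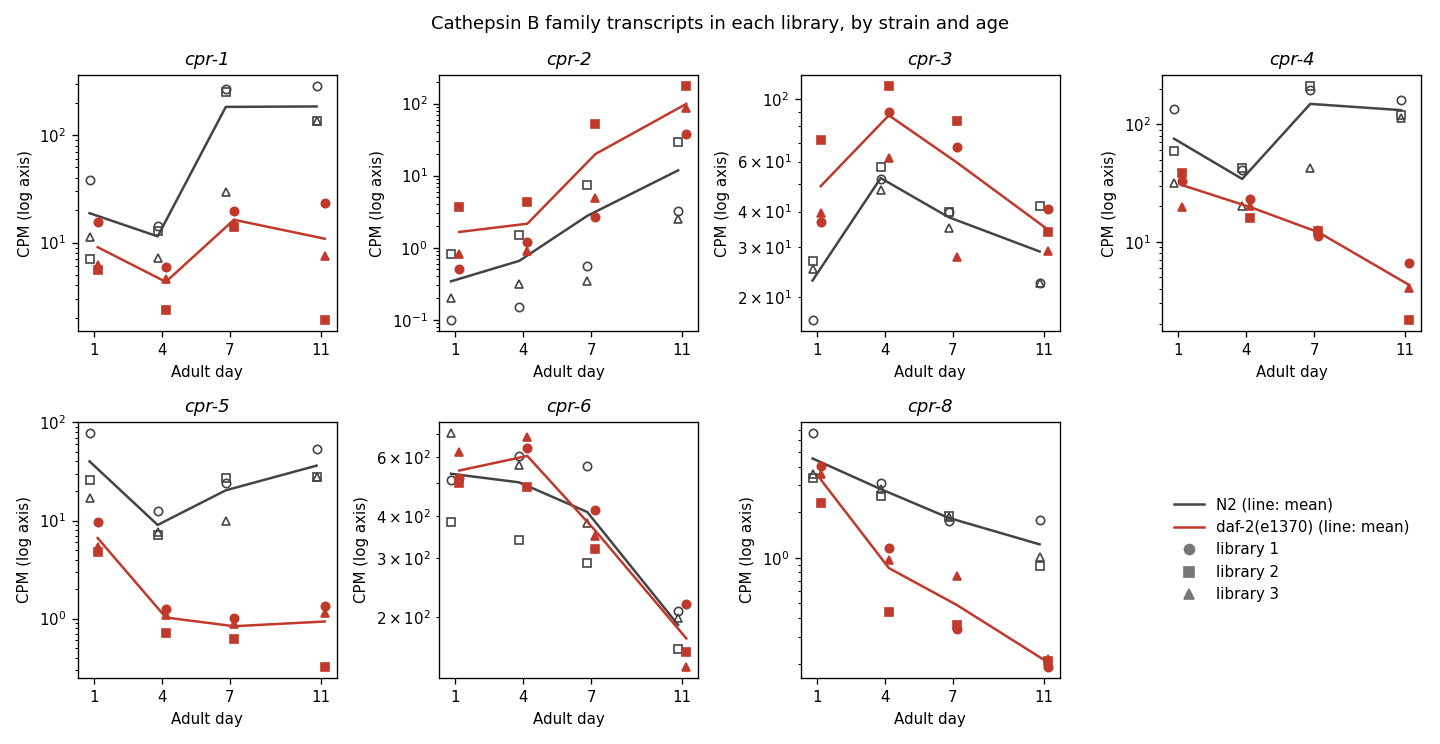
Level of each gene in each of the 24 libraries (CPM, log axis) against adult day, with open symbols for N2, filled red symbols for daf-2(e1370), shapes for the library number and lines through the means of 3 libraries; the value of 0 for cpr-2 in N2 day 1 library 1 is drawn at 0.1. On day 11 all 3 daf-2 libraries lie under all 3 N2 libraries for cpr-1, cpr-4, cpr-5 and cpr-8, and above them for cpr-2.

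The strain comparison asks how the family differs in daf-2 animals at each age. On day 11, cpr-1, cpr-4, cpr-5 and cpr-8 were lower in daf-2 than in N2, cpr-4 by 30.6 times and cpr-5 by 39 times. These 4 genes are 4 of 7 members, while 3.95% of all genes tested were called in either direction, 2.24% lower and 1.71% higher. No member was called higher in daf-2 by edgeR or by DESeq2 at this age, and 1, cpr-2, was higher at an unadjusted p below 0.05; with library number as a block, edgeR called cpr-2 higher (adjusted p = 5.39e-06). On day 1 the call reached 1 member, cpr-5, where 1.75% of all genes were called, 0.611% lower and 1.14% higher. On day 4 it reached cpr-5 and cpr-8, where 1.93% of all genes were called, 0.371% lower and 1.56% higher. On day 7 it reached the same 4 genes as on day 11, where 2.1% of all genes were called, 0.994% lower and 1.1% higher. Again no member was called higher on days 1, 4 and 7 by either tool, with 1 at an unadjusted p below 0.05 on each day, while the edgeR fit with the block called cpr-3 higher on day 1 (adjusted p = 0.0215) and cpr-2 on day 7 (0.000692). Of 10 intestine markers, 3 were lower in daf-2 on day 7, and 2 were lower and 1 higher on day 11; their values are given with the other markers, and their part in the differences of the cpr genes was not tested. In whole animals, fewer cells of a type and less RNA per cell cannot be told apart.

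cpr-5 had the largest strain difference of the 7 at every age. In N2 it was at 77.6, 26.1 and 16.8 CPM on day 1, 12.4, 7.05 and 7.60 on day 4, 24.01, 26.99 and 10 on day 7, and 53.5, 27.7 and 27.7 on day 11. In daf-2 it was at 9.66, 4.79 and 5.42 CPM on day 1, 1.26, 0.720 and 1.10 on day 4, 1.01, 0.614 and 0.883 on day 7, and 1.34, 0.324 and 1.14 on day 11. Every daf-2 library was lower than every N2 library of its age, and the daf-2 libraries of days 4, 7 and 11 rested on only 11 to 42 counts each. The log2 difference, daf-2 minus N2, was -2.60 ± 0.52 on day 1 (edgeR adjusted p = 0.00707), -3.15 ± 0.57 on day 4 (0.00284), -4.59 ± 0.59 on day 7 (6.93e-05) and -5.29 ± 0.61 on day 11 (9.07e-06). The day 1 call was lost without N2 library 1, at -1.69 (edgeR adjusted p = 0.0956), without daf-2 library 2 (0.0654) and with only the groups compared in the fit (0.127).

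cpr-4, the secreted member, was called between strains on days 7 and 11 only. Within library numbers, daf-2 was already lower in 3 of 3 pairs on day 1 (-2.03, -0.64 and -0.66) and in 2 of 3 on day 4. In N2 it was at 135, 59.6 and 31.6 CPM on day 1, 40.6, 42.2 and 20.0 on day 4, 194, 209 and 42.8 on day 7, and 161, 119.9 and 114 on day 11. In daf-2 it was at 32.9, 38.2 and 20.0 CPM on day 1, 23.2, 16 and 20.0 on day 4, 11.2, 12.4 and 12.6 on day 7, and 6.65, 2.18 and 4.08 on day 11. The strains overlapped on days 1 and 4 and did not on days 7 and 11. Differences of -1.31 ± 0.50 on day 1 and -0.80 ± 0.50 on day 4 did not pass the test (edgeR adjusted p = 0.34 and 0.764). Day 7 gave -3.62 ± 0.55 (edgeR adjusted p = 0.000419) and day 11 gave -4.94 ± 0.59 (edgeR adjusted p = 1.48e-05). Without N2 day 7 library 3, the day 7 difference was -4.06 (edgeR adjusted p = 3.07e-05).

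For cpr-1, the gut protease gene, the N2 libraries held 38.1, 7.03 and 11.3 CPM on day 1 and 14.2, 12.9 and 7.22 on day 4, then 266, 253 and 29.8 on day 7 and 284, 134 and 137 on day 11. The daf-2 libraries held 15.4, 5.59 and 6.19 CPM on day 1, 5.96, 2.35 and 4.64 on day 4, 19.7, 13.9 and 15.3 on day 7, and 23.2, 1.92 and 7.51 on day 11. From day 4 on, each daf-2 library was under each N2 library of its age, while on day 1 they overlapped. cpr-1 was 11.2 times lower in daf-2 on day 7 (log2 -3.49 ± 0.81, edgeR adjusted p = 0.0208) and 17 times lower on day 11 (-4.09 ± 0.83, edgeR adjusted p = 0.00411). It was not called on day 1 (-1.05 ± 0.75, edgeR adjusted p = 0.996) or day 4 (-1.42 ± 0.78, edgeR adjusted p = 0.656). The day 7 call was lost on leaving out N2 library 1 or 2 or any 1 of the 3 daf-2 libraries (edgeR adjusted p between 0.0763 and 0.131), and with only the groups compared in the fit (0.0572), while without N2 library 3 it stood at -3.99 (0.00522). On day 11 it was kept when any 1 library was left out, at -5.31 without daf-2 library 1 (edgeR adjusted p = 0.00247).

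cpr-8 was a weakly expressed member, with 6 to 158 counts in a library, and its daf-2 day 11 libraries rested on 6, 7 and 6 counts. Its N2 libraries were at 6.64, 3.35 and 3.57 CPM on day 1, 3.11, 2.56 and 2.85 on day 4, 1.75, 1.89 and 1.86 on day 7, and 1.79, 0.880 and 1.01 on day 11. Its daf-2 libraries were at 4.01, 2.29 and 3.55 CPM on day 1, 1.16, 0.438 and 0.961 on day 4, 0.338, 0.361 and 0.761 on day 7, and 0.191, 0.206 and 0.215 on day 11. The strains overlapped on day 1 and were apart at the later ages. The log2 difference was -0.46 ± 0.35 on day 1 (edgeR adjusted p = 1), -1.75 ± 0.38 on day 4 (0.0125), -1.89 ± 0.39 on day 7 (0.00925) and -2.57 ± 0.44 on day 11 (0.000835). The day 4 call ended without N2 library 1 (edgeR adjusted p = 0.0611), without daf-2 library 2 (0.118), without the libraries numbered 3 (0.0711) and with only the groups compared (0.0706). The day 7 call ended without daf-2 library 1 (edgeR adjusted p = 0.0694), without daf-2 library 2 (0.0785) and with only the groups compared (0.0899).

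**Figure D2:**
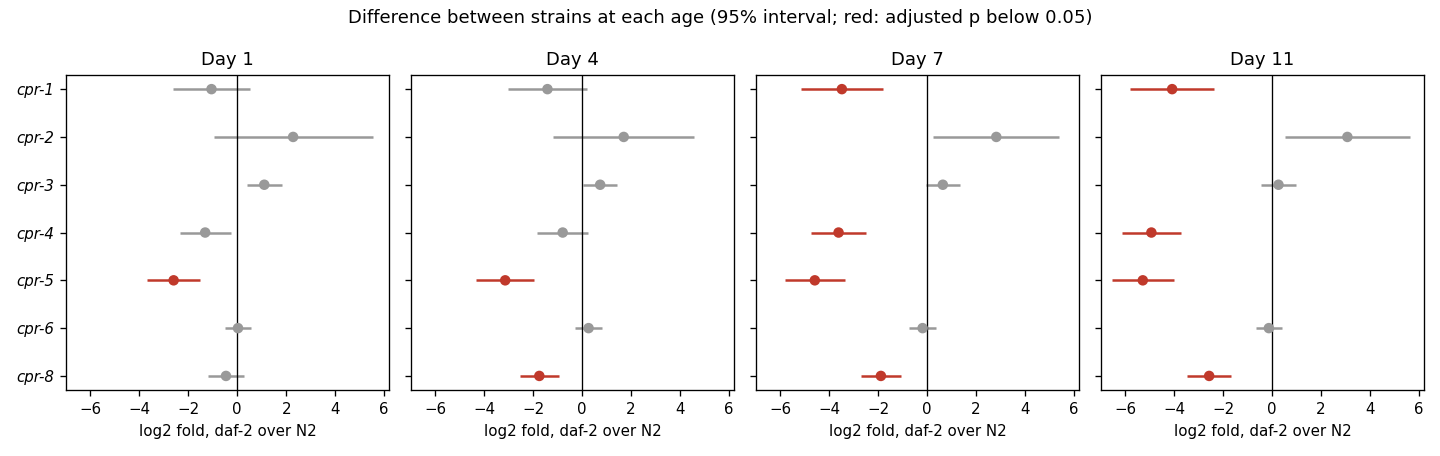
Log2 difference in level between strains, daf-2 over N2, for each gene at each age, with 95% intervals from the edgeR fit; red points have an adjusted p below 0.05. cpr-5 is red at all 4 ages, cpr-8 from day 4, and cpr-1 and cpr-4 on days 7 and 11, while cpr-6 lies between -0.19 and 0.26.

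cpr-2 ran the other way, with the N2 libraries at 0, 0.827 and 0.199 CPM on day 1, 0.152, 1.51 and 0.312 on day 4, 0.557, 7.41 and 0.344 on day 7, and 3.25, 29.8 and 2.53 on day 11. The library at 0 can hold up to 0.126 CPM, the level that 3 counts would give. The daf-2 libraries were at 0.510, 3.65 and 0.806 CPM on day 1, 1.21, 4.35 and 0.893 on day 4, 2.67, 52.3 and 4.84 on day 7, and 38.1, 173 and 86.4 on day 11. The strains were apart on day 11 only. Library 2 was the highest in 8 of 8 groups, by 2 to 13.3 times over the next library, so the spread within a group was large. Without the block the strain difference did not pass at any age, at 2.29 ± 1.56, 1.70 ± 1.38, 2.83 ± 1.24 and 3.08 ± 1.22 from day 1 to day 11 (edgeR adjusted p = 0.968, 0.888, 0.427 and 0.199). Compared within library numbers, daf-2 was higher in 3 of 3 pairs at each age, with day 11 log2 differences of 3.52, 2.53 and 5.06. With library number as a block, cpr-2 was called higher in daf-2 on day 7 (2.73, edgeR adjusted p = 0.000692) and day 11 (3.81, edgeR adjusted p = 5.39e-06).

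The remaining members, cpr-3 and cpr-6, were not called between strains at any age. cpr-3, a cathepsin B-like protease, was at 16.6, 26.8 and 25.2 CPM in N2 and 36.6, 71.2 and 39.6 in daf-2 on day 1, and these libraries did not overlap. Its day 1 difference of 1.11 ± 0.34 did not pass (edgeR adjusted p = 0.136), and it passed with the block, at 1.05 (edgeR adjusted p = 0.0215). On days 4 and 7 the differences were 0.74 ± 0.34 and 0.64 ± 0.34 (edgeR adjusted p = 0.464 and 0.575). On day 11 cpr-3 stood at 22.4, 41.9 and 22.4 CPM in N2 and 40.7, 33.9 and 29.1 in daf-2, a difference of 0.26 ± 0.34 (edgeR adjusted p = 0.884). For cpr-6, the strain differences of 0.03, 0.26, -0.19 and -0.13 from day 1 to day 11 had SEs of 0.26 each, and the 95% interval on day 11 ran from -0.67 to 0.41.

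**Figure D3:**
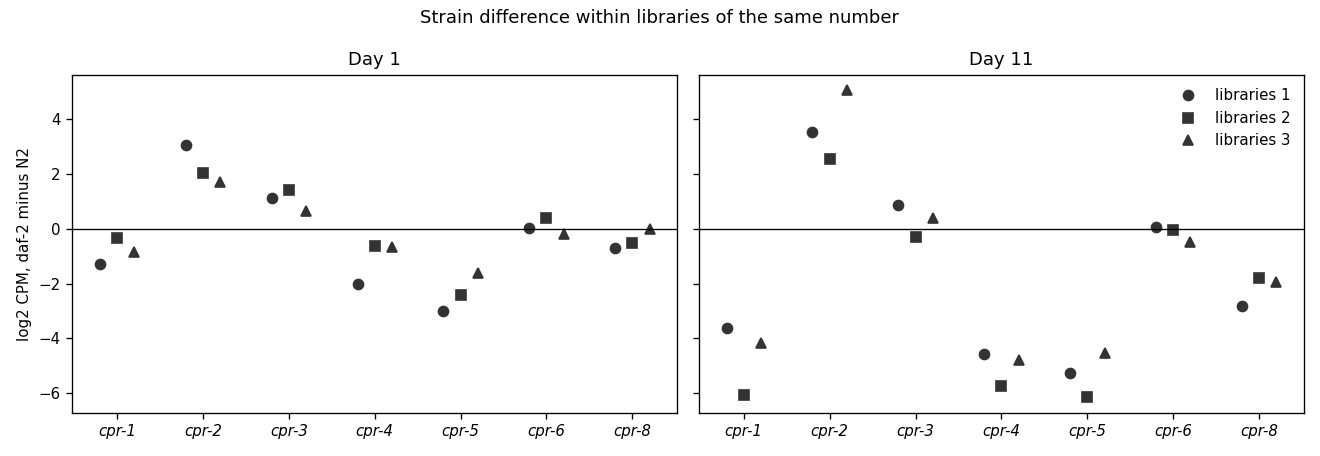
Log2 CPM difference, daf-2 minus N2, within libraries of the same number on day 1 and day 11, with shapes for the library number. On day 1 all 3 pairs are below 0 for cpr-1, cpr-4, cpr-5 and cpr-8 (1 pair of cpr-8 only just, at -0.011) and above 0 for cpr-2 and cpr-3. On day 11 all 3 pairs are below 0 for cpr-1, cpr-4, cpr-5 and cpr-8 and above 0 for cpr-2, while cpr-6 lies between -0.48 and 0.07.

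The age comparison asks how each gene moved between day 1 and later days within a strain. By day 11, N2 animals had more cpr-1 and cpr-2 and less cpr-6 and cpr-8 than on day 1, while daf-2 animals had more cpr-2 and less cpr-4, cpr-5, cpr-6 and cpr-8. In N2, 2 of 7 members rose and 2 fell, where 41.7% of all genes were called, 22.5% higher and 19.2% lower, so the members' share was near that of all genes. In daf-2, 1 of 7 rose and 4 fell, where 40.3% of all genes were called, 22.3% higher and 18% lower. Earlier, N2 had 2 members called on day 4 (9.1% of all genes) and 2 on day 7 (25.9%), and daf-2 had 2 on day 4 (9.24%) and 3 on day 7 (27.8%). The comparisons within a strain share their day 1 libraries.

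cpr-6, with the most counts of the family, fell late in both strains. In N2 it was at 513, 385 and 705 CPM on day 1, 602, 341 and 568 on day 4, 564, 289.6 and 380.4 on day 7, and 209.5, 161 and 199 on day 11. In daf-2 it was at 517, 499.9 and 622 CPM on day 1, 637, 488 and 686 on day 4, 416, 319.7 and 349 on day 7, and 219.5, 157 and 143 on day 11. The day 11 libraries were below all day 1 libraries of their strain. Day 11 against day 1 gave -1.49 ± 0.26 in N2 (edgeR adjusted p = 0.000146) and -1.66 ± 0.27 in daf-2 (edgeR adjusted p = 6.33e-05), and both falls were called when any 1 library was left out. On day 4 the values were -0.09 ± 0.26 in N2 and 0.14 ± 0.26 in daf-2 (edgeR adjusted p = 0.889 and 0.798). No fall was called on day 7 (-0.38 ± 0.26 in N2, edgeR adjusted p = 0.302; -0.60 ± 0.26 in daf-2, 0.0935), and with the block the daf-2 value passed (edgeR adjusted p = 0.00852).

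cpr-8 fell with age in both strains. In N2 the change from day 1 was -0.67 ± 0.35 on day 4 (edgeR adjusted p = 0.263), -1.298 ± 0.36 on day 7 (0.0108) and -1.87 ± 0.37 on day 11 (0.000406). In daf-2 it was -1.962 ± 0.38 on day 4 (edgeR adjusted p = 0.00225), -2.73 ± 0.39 on day 7 (4.09e-05) and -3.98 ± 0.44 on day 11 (7.13e-07), a fold of 15.8 at the last age. The day 7 call in N2 ended without day 1 library 1 (-0.92, edgeR adjusted p = 0.0968).

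Its neighbour cpr-5 fell early. By day 4 it had dropped in N2 (-2.16 ± 0.51, edgeR adjusted p = 0.00958) and in daf-2 (-2.70 ± 0.57, edgeR adjusted p = 0.00402). In daf-2 it stayed low, at -2.97 ± 0.57 on day 7 (edgeR adjusted p = 0.000662) and -2.83 ± 0.56 on day 11 (0.000529). In N2 the day 7 value was -0.98 ± 0.49 (edgeR adjusted p = 0.149) and the day 11 value -0.14 ± 0.48 (0.834), and the latter turned positive under upper-quartile scaling (0.04) and when libraries were scaled by their size alone (0.10). The N2 day 4 call was lost without day 1 library 1 (-1.25, edgeR adjusted p = 0.14) and without day 4 library 2 (0.0625). N2 day 1 library 1 was the highest of the 24 libraries for both cpr-5 and cpr-8.

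cpr-1 rose in N2 between day 4 and day 7: the change from day 1 was -0.71 ± 0.75 on day 4 (edgeR adjusted p = 0.625), 3.28 ± 0.80 on day 7 (0.00458) and 3.30 ± 0.80 on day 11 (0.00249). Without N2 day 1 library 1 the day 7 and day 11 values were 4.31 and 4.33 (edgeR adjusted p = 0.00316 and 0.00146). In daf-2 the values were -1.08 ± 0.78, 0.85 ± 0.75 and 0.26 ± 0.75 on days 4, 7 and 11, and none passed (edgeR adjusted p = 0.443, 0.419 and 0.802). cpr-4 was not called in N2 at any age (-1.14 ± 0.50, 0.98 ± 0.50 and 0.81 ± 0.49; edgeR adjusted p = 0.17, 0.152 and 0.198). With the block its N2 values passed on day 7 (1.00, edgeR adjusted p = 0.0473) and day 11 (0.96, edgeR adjusted p = 0.0452), both upward, and without N2 day 7 library 3 the day 7 value was 1.42 (0.0288). In daf-2, cpr-4 fell to -2.82 ± 0.54 by day 11 (edgeR adjusted p = 0.000364), after -0.62 ± 0.50 on day 4 (0.503) and -1.33 ± 0.51 on day 7 (0.0554; 0.0187 with the block).

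cpr-2 rose in both strains. On day 11 the change from day 1 was 5.11 ± 1.53 in N2 (edgeR adjusted p = 0.0109) and 5.90 ± 1.42 in daf-2 (0.00261). Every library number rose in each strain, by 5.58, 5.06 and 3.28 in N2 and by 6.04, 5.54 and 6.63 in daf-2 (log2 CPM differences). Leaving out library 2 at a single age, which breaks its pair, moved the N2 value. Without it on day 11 the change was 3.09 (edgeR adjusted p = 0.115), and without it on day 1 the change was 6.69 (0.0193). In daf-2 the corresponding values were 5.23 (edgeR adjusted p = 0.0096) and 7.21 (0.00527). On day 4 it was not called in either strain (0.99 ± 1.68 and 0.41 ± 1.27; edgeR adjusted p = 0.784 and 0.894). By day 7, cpr-2 was called in daf-2 (3.59 ± 1.299, edgeR adjusted p = 0.0441) and not in N2 (3.05 ± 1.53, edgeR adjusted p = 0.15). The daf-2 day 7 call ended without day 7 library 2 (1.18, edgeR adjusted p = 0.518), without day 1 library 1 (0.141), without day 1 library 3 (0.114), without all libraries numbered 3 (0.0779) and with only the groups compared (0.0514), and without day 1 library 2 the change was 4.90 (0.044). With the block the N2 day 7 rise passed (2.74, edgeR adjusted p = 0.00239).

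cpr-3 peaked on day 4. Its N2 libraries went from 16.6, 26.8 and 25.2 CPM on day 1 to 52.2, 57.7 and 47.7 on day 4, with no overlap, then 39.7, 39.7 and 35.1 on day 7. Its daf-2 libraries went from 36.6, 71.2 and 39.6 CPM to 89.8, 110.5 and 61.9 on day 4 and 67.6, 83.5 and 27.6 on day 7, with overlap. The N2 rise on day 4 was 1.201 ± 0.34 (edgeR adjusted p = 0.0289), and in daf-2 the value was 0.83 ± 0.34 (edgeR adjusted p = 0.131; 0.0203 with the block). The N2 call was lost when day 1 library 1 or 3 or day 4 library 1 or 2 was left out (edgeR adjusted p between 0.0511 and 0.157). On day 7 the N2 value of 0.74 ± 0.34 did not pass (edgeR adjusted p = 0.112; 0.0251 with the block), and on day 11 cpr-3 was not called in either strain (0.34 ± 0.34 and -0.51 ± 0.34; edgeR adjusted p = 0.44 and 0.234).

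**Figure D4:**
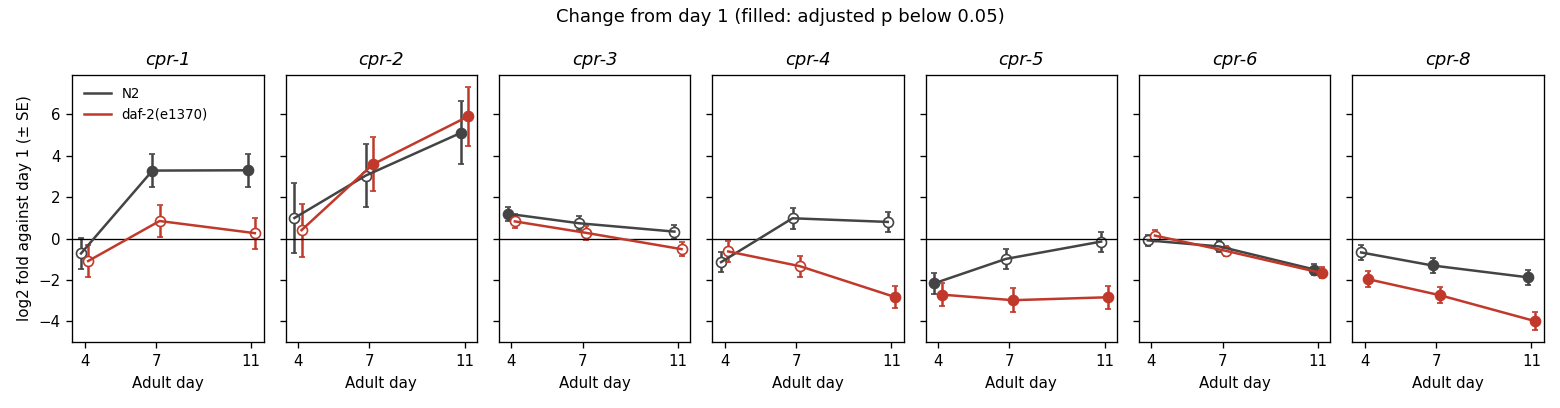
Log2 change from day 1 on days 4, 7 and 11 (± SE) for each gene in N2 (grey) and daf-2 (red), with filled points where the adjusted p was below 0.05. cpr-2 rises and cpr-6 and cpr-8 fall in both strains by day 11, cpr-1 rises in N2, and cpr-4 and cpr-5 have filled points on day 11 in daf-2 and open ones in N2.

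Whether the strains aged differently was tested by the difference between their day 11 against day 1 changes. cpr-4 was the only member called, where 0.347% of all genes were called, 0.264% lower, at -3.62 ± 0.73 (edgeR adjusted p = 0.0338), with 0.81 in N2 and -2.82 in daf-2. That call was not kept throughout: it ended when any of 7 of the 12 libraries was left out (edgeR adjusted p between 0.0574 and 0.102). It also ended with only the groups compared (0.0905), while without N2 day 1 library 1 it was -4.35 (0.017). The value itself stayed between -4.35 and -3.26 when libraries were left out. The number called over all genes moved as well, from 58 to 20 without N2 day 1 library 2 and to 99 without N2 day 1 library 3. cpr-5 (-2.69 ± 0.74, edgeR adjusted p = 0.157), cpr-8 (-2.11 ± 0.56, 0.132) and cpr-1 (-3.04 ± 1.07, 0.347) did not pass with edgeR, and DESeq2 called 3 members, cpr-4, cpr-5 (DESeq2 adjusted p = 0.0243) and cpr-8 (0.0457). With the block, 4 members were called, all lower in daf-2: cpr-4 (edgeR adjusted p = 0.00304), cpr-5 (0.00807), cpr-8 (0.0275) and cpr-1 (0.0399). Over all genes, DESeq2 called 171 in this comparison and edgeR with the block 260, against 58 by edgeR without it. cpr-2, cpr-3 and cpr-6 gave 0.79 ± 2.04, -0.85 ± 0.47 and -0.16 ± 0.37 (edgeR adjusted p = 1, 0.773 and 1). In the same test 2 of 10 intestine markers were called, both lower, namely ifb-2, an intermediate filament gene (-1.62 ± 0.22, edgeR adjusted p = 0.00447), and pept-1, a peptide transporter gene (-1.75 ± 0.38, 0.0442), and their part in the cpr-4 difference was not tested.

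The makeup of the family's transcripts differed between ages. Per kilobase of exon, cpr-6 held 75.3% ± 12.6 (SD, n = 3) of the summed CPM of the 7 genes in N2 on day 1 and 30.7% ± 5.59 on day 11. On day 11 in N2, cpr-1 held 33% ± 7.15 and cpr-4 23.3% ± 0.875. In daf-2, cpr-6 went from 84% ± 4.66 on day 1 to 51.4% ± 12.8 on day 11, when cpr-2 held 33.5% ± 19.1 and cpr-4 1.46% ± 0.798. By these means, cpr-1 and cpr-6 were close in N2 on day 11, and cpr-2 followed cpr-6 in daf-2. In daf-2 day 11 library 2 the order was reversed, with cpr-2 at 162 CPM per kilobase and cpr-6 at 125. In libraries 1 and 3 of that group cpr-6 was the higher. The summed level was 563 ± 132 CPM per kilobase on day 1 and 502 ± 117 on day 11 in N2, and 515 ± 34.1 and 271 ± 44.2 in daf-2. The day 11 sums ran from 428 to 637 in N2 and from 227 to 316 in daf-2, and these are given with no test because they add members whose results were known.

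**Figure D5:**
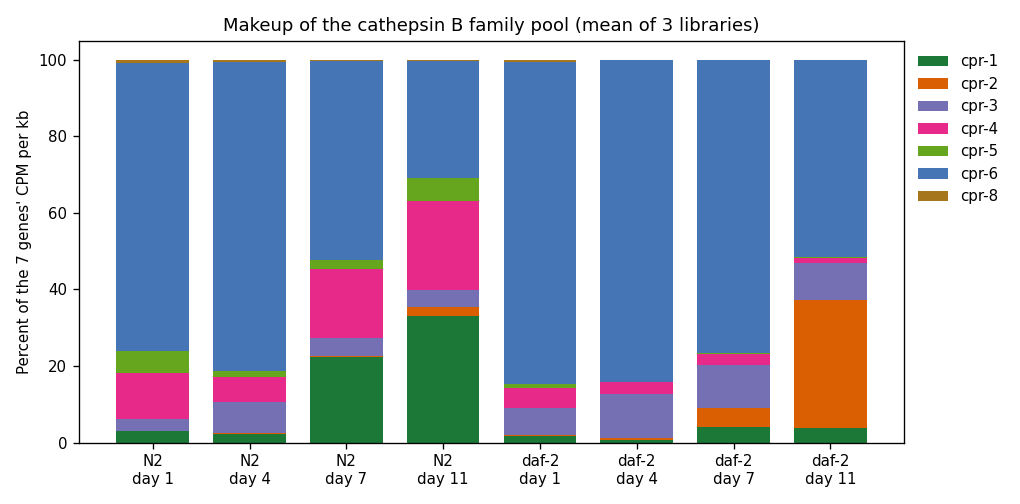
Share of each gene in the 7 genes' summed CPM per kilobase of exon (percent, mean of 3 libraries) for each strain and day. cpr-6 takes 75.3% on day 1 and 30.7% on day 11 in N2, where cpr-1 and cpr-4 widen, and 84% and 51.4% in daf-2, where cpr-2 widens.

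Ordered by mean CPM, the 8 groups of cpr-1 ran from N2 day 11 (185 ± 85.5 CPM, SD, n = 3) and N2 day 7 (183 ± 133) to daf-2 day 4 (4.32 ± 1.83), and no 2 neighbours in that order were free of overlap. For cpr-4 the order ran from N2 day 7 (149 ± 91.9) to daf-2 days 4, 7 and 11 (19.7 ± 3.61, 12.1 ± 0.756 and 4.30 ± 2.24), and these last 3 groups did not overlap. cpr-5 had 2 gaps between neighbours. N2 day 11 (36.3 ± 14.9, lowest library 27.66) was only just above N2 day 7 (20.3 ± 9.07, highest library 26.99), and daf-2 day 1 (6.62 ± 2.65) was clear of daf-2 day 4 (1.03 ± 0.279). For cpr-8, N2 day 4 (2.84 ± 0.274) stood clear of N2 day 7 (1.83 ± 0.0742), and daf-2 day 7 (0.487 ± 0.238) of daf-2 day 11 (0.204 ± 0.0120). In cpr-6 the 1 gap lay between daf-2 day 7 (362 ± 49.4) and N2 day 11 (189.8 ± 25.5). cpr-2, from daf-2 day 11 (99.1 ± 68.2) down to N2 day 1 (0.342 ± 0.432), and cpr-3, from daf-2 day 4 (87.4 ± 24.4) down to N2 day 1 (22.8 ± 5.47), had no gap between neighbours.

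Across the 24 libraries, which share strains, ages and library numbers, cpr-4 and cpr-5 had the most alike log2 CPM of the 21 pairs of members (r = 0.89), and cpr-2 and cpr-8 the most opposed (r = -0.845). The divergent neighbours cpr-5 and cpr-8 had r = 0.752. Among 5177 other genes that code for protein, carry a named gene class and average at least 10 CPM, the closest to cpr-1 were clec-5 (r = 0.952) and clec-166 (0.902), of the C-type lectin class, and fip-5 (0.876). Those closest to cpr-2 were faah-2 (0.887), of the fatty acid amide hydrolase class, vsra-1 (0.878) and tps-1 (0.873), a trehalose-phosphate synthase gene. For cpr-3 they were hpo-6 and aman-3 (both 0.86) and clec-65 (0.857). cpr-4 was closest to asp-1 (0.858), an aspartyl protease gene, nspc-20 (0.846) and ilys-5 (0.829), a lysozyme gene, and cpr-5 to ilys-5 (0.9), lin-18 (0.877) and cpt-5 (0.845). The genes most like cpr-6 were acs-1 (0.926), an acyl-CoA synthetase gene, ctsa-3.1 (0.921), of the cathepsin A class, and mfsd-13.1 (0.913). cpr-8 was closest to abhd-3.2 (0.925), fat-7 (0.923), a stearoyl-CoA desaturase gene, and aqp-11 (0.894), an aquaporin gene.

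Other cysteine cathepsins and their cystatin inhibitors gave a wider view, with 9 genes tested: cpl-1 (cathepsin L), cpz-1 and cpz-2 (cathepsin Z class), tag-196, cpr-9, Y65B4A.2, F32H5.1, cpi-1 and cpi-2 (cystatins). In N2 on day 11, 6 rose and 2 fell, where 22.5% of all genes rose and 19.2% fell, with a median log2 change of 0.83 against 0.10 over all genes. cpi-1 had the largest rise (1.94 ± 0.37, edgeR adjusted p = 0.000319) and cpr-9 fell (-1.13 ± 0.29, edgeR adjusted p = 0.00366). In daf-2 on day 11, 4 rose and 2 fell, where 22.3% and 18% of all genes did, with a median of 0.55 against 0.09 over all genes. The 2 that fell there were cpr-9 (-2.43 ± 0.30, edgeR adjusted p = 3.01e-06) and cpl-1 (-1.17 ± 0.24, 0.000744). Both cystatins, cpi-1 and cpi-2, were among the genes that rose in each strain, so these counts are not of proteases alone. Between strains on day 11, 3 were lower in daf-2 and none higher by edgeR, where 4 passed an unadjusted p below 0.05 in either direction and DESeq2 called 3; edgeR called 3.95% of all genes there, 2.24% lower. The largest of these differences was that of cpr-9 (-1.60 ± 0.29, edgeR adjusted p = 0.00163), and cpl-1 was also lower (-1.56 ± 0.24, edgeR adjusted p = 0.00038). Earlier, edgeR called only cpi-1 on day 4, higher in daf-2 (1.78 ± 0.37, edgeR adjusted p = 0.00877), and only cpl-1 on day 7, lower (-1.13 ± 0.24, 0.0115). On those days 1.93% and 2.1% of all genes were called.

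Of 14 lysosome genes outside the cysteine cathepsins, 7 rose and 2 fell in N2 on day 11, where 41.7% of all genes were called, with hex-1, a hexosaminidase gene, at 2.92 ± 0.28 (edgeR adjusted p = 9.23e-08) and gana-1, a lysosomal glycosidase gene, at -1.31 ± 0.36 (0.00566), and the median was 0.69 against 0.10 over all genes. In daf-2 on day 11, 3 rose and 1 fell, where 40.3% of all genes were called, and the median was 0.25 against 0.09. That share of called genes, 4 of 14, was below the share over all genes. On day 11 none of the 14 differed between strains by edgeR or DESeq2, where edgeR called 3.95% of all genes. Of the 14, 4 passed an unadjusted p below 0.05. Earlier, edgeR called only hex-1 of the 14, higher in daf-2 on day 1 (1.58 ± 0.26, edgeR adjusted p = 0.00113), day 4 (2.03 ± 0.265, 7.88e-05) and day 7 (1.10 ± 0.26, 0.0235). On those days 1.75%, 1.93% and 2.1% of all genes were called. Of the 6 gut transcription factors and daf-16, 3 rose in N2 on day 11, where 22.5% of all genes rose. The largest rise was that of pqm-1, at 1.49 ± 0.26 (edgeR adjusted p = 0.000143). None of the 6 was called in daf-2 on day 11 by edgeR or DESeq2, where edgeR called 40.3% of all genes, and 2 passed an unadjusted p below 0.05. None was called between strains on day 11 by edgeR, by DESeq2 or at an unadjusted p below 0.05. With so few genes, that count was near the share of all genes, 3.95% by edgeR.

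Markers of the intestine moved with age, and single markers differed between strains on days 4, 7 and 11, in both directions. The summed level of 10 intestine markers was 1037 to 1256 CPM on day 1, 762 to 842 on day 4, 563 to 643 on day 7 and 388.6 to 434.5 on day 11 in N2. In daf-2 it was 1052 to 1189 CPM on day 1, 674 to 867 on day 4, 368 to 581 on day 7 and 268.5 to 375.6 on day 11. These sums overlapped between strains on days 1, 4 and 7 and did not on day 11. Between strains, ges-1, an esterase gene, was higher in daf-2 on day 4 (1.48 ± 0.28, edgeR adjusted p = 0.00363). On day 7, 3 of the 10 were lower in daf-2 by edgeR and DESeq2 called 5 in either direction; the 3 were ifb-2 (-0.99 ± 0.15, edgeR adjusted p = 0.000565), pept-1 (-1.21 ± 0.27, 0.0155) and vha-6, a proton pump subunit gene (-0.88 ± 0.21, 0.0284). On day 11, 6 of the 10 had fallen from day 1 in each strain, where 19.2% of all genes fell in N2 and 18% in daf-2. Between strains on day 11, ges-1 was higher in daf-2 (1.13 ± 0.27, edgeR adjusted p = 0.0182), while ifb-2 (-1.43 ± 0.16, 6.45e-06) and pept-1 (-1.80 ± 0.28, 0.00031) were lower. Over all genes, edgeR called 1.93% between strains on day 4, 2.1% on day 7 and 3.95% on day 11. All 5 body wall muscle markers fell by day 11 in both strains, with medians of -2.26 in N2 and -3.10 in daf-2. Between strains on day 11, edgeR called none of the 5 muscle, 4 pharynx, 5 neuron, 4 hypodermis, 5 germline and 5 sperm markers, nor did DESeq2, and at an unadjusted p below 0.05 only 3 sperm markers passed. By day 11 in N2, 1 pharynx, 1 neuron and 2 sperm markers rose, and 1 hypodermis and 2 germline markers fell. In daf-2, 1 neuron and 4 sperm markers rose, and 1 hypodermis and 1 germline marker fell. Over all genes, 22.5% rose and 19.2% fell in N2, and 22.3% and 18% in daf-2. So 1 of 4 or 1 of 5 markers of a type was near the share of all genes.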

How the data were processed

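RNA was sequenced after ribosomal RNA removal with a stranded total RNA kit, per the labels' protocols. The authors deposited 1 table per library with expected counts per gene, which are estimated read numbers that need not be whole. Named, without roles, are RSEM 1.3.1 and STAR 2.7.0e, together with WBcel235 and ce11 as genome builds, per the submitters' processing notes. The deposited expected counts were rounded to whole numbers here, and 46817 of 46904 identifiers were found in Ensembl release 115 of WBcel235, which gave symbols, positions and exon lengths; in no library did the 87 others exceed 0.00886% of the total.

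edgeR 4.0.16 (R 4.3.3) was run on all 24 libraries in 1 quasi-likelihood fit with a mean for each of 8 groups, TMM scaling and filterByExpr, and p-values were adjusted over 16698 genes at a threshold of 0.05. Standard errors are the log2 fold change divided by the root of F. Log2 CPM used a prior count of 2. The fit was tested on simulated data. These had the same spread for every gene and no effect of library number, so the test does not cover such an effect. Alternatives were DESeq2 1.42.0, 3 other scalings, 2 other low-count filters, ribosomal RNA left out, library number as a block, fits of the compared groups alone, and leaving out libraries. Counts of 3 set the floor for a library at 0; it covers counting error only.

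Library numbers come from the sample titles. In every comparison of 2 groups, all same-numbered pairs had a correlation of deviations from the group means above 0.1 (lowest 0.168), and 24 of 24 libraries correlated best with their own number. No 2 libraries of a group were near-duplicates. Libraries 1 and 2 were the most alike pair in each of the 8 groups. Their median chi-square per gene was 2.87 to 6.24, against 8.14 to 29.9 for pairs with library 3.

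The genes, the gene lists and the rules for named genes were chosen with earlier results of these data known. From each list, counts are given, and by name the called gene with the largest rise and the one with the largest fall among those of at least 10 CPM, on day 11 against day 1 in N2 and between strains on day 11. Added after their values were seen were cpl-1, cpi-2, the daf-2 results of cpr-9 and cpi-1, the strain differences of hex-1 and cpi-1 before day 11 and the named intestine markers. For each member the 3 genes most like it over 24 libraries are named. In the list of cathepsins, cpr-7 matched no gene, and 2 entries were other names of cpr-8 and cpr-9. No sequences are shown.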

Additional observations from a re-analysis of the deposited data

Results flagged for a closer look

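The change of cpr-4 from day 1 to day 11 differed between the strains by a test of the difference itself: -3.62 on the log2 scale, daf-2 minus N2 (edgeR adjusted p = 0.0338), with 0.81 in N2 and -2.82 in daf-2. Within library numbers, cpr-4 was higher on day 11 than on day 1 in 3 of 3 N2 pairs (0.26, 1.01 and 1.84) and lower in 3 of 3 daf-2 pairs (-2.29, -4.09 and -2.27). The call ended when any of 7 of the 12 libraries was left out (edgeR adjusted p between 0.0574 and 0.102) and with only the groups compared in the fit (0.0905), and with library number as a block it stood at an edgeR adjusted p of 0.00304.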

How the results depend on the processing

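The numbers of members called moved by more than 1.5 times in these cases. With the replicate block, 5 members were called in N2 on day 7, 5 in daf-2 on day 7, 2 between strains on day 1 and 4 for the strain by age difference. Over all 16698 genes, the block also raised the numbers called, to 7146 and 7528 on day 7 in N2 and daf-2. It raised them to 663 between strains on day 1 and 260 for strain by age. With library size alone, 2 members were called between strains on day 1. DESeq2 called 3 members for strain by age, where it called 171 of all genes. With only the groups compared, 0, 1 and 2 members were called between strains on days 1, 4 and 7, and 0 for strain by age. Over all genes, those numbers fell to 75 and 186 on days 1 and 7 and 18 for strain by age. Leaving out libraries gave 0 to 3 members in N2 on day 4, 0 to 1, 1 to 2 and 2 to 4 between strains on days 1, 4 and 7, and 0 to 2 for strain by age. The counts in daf-2 on days 4 and 11 (2 and 5) and between strains on day 11 (4) were the same without any 1 library.

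Among the alternatives run, signs turned only for values that were not called. The block changed no member's call other than those given with the results. cpr-4 in daf-2 on day 7, short of the threshold at an adjusted p of 0.0554, passed under DESeq2, RLE scaling, both other low-count filters, the block and the compared groups alone (0.0109 to 0.0472). Leaving out libraries gave -1.11 to 0.31 for cpr-1 and -0.51 to 2.58 for cpr-2 in N2 on day 4, -0.27 to 0.17 for cpr-6 in N2 on day 4, and -0.029 to 0.57 for cpr-3 and -0.54 to 0.76 for cpr-5 in N2 on day 11. In daf-2 it gave -0.67 to 1.72 for cpr-2 on day 4, -0.047 to 0.64 for cpr-3 on day 7 and -0.96 to 0.88 for cpr-1 on day 11. Between strains, cpr-6 ran from -0.16 to 0.28 on day 1, -0.38 to 0.10 on day 7 and -0.34 to 0.023 on day 11, and for strain by age cpr-2 ran from -0.795 to 2.81 and cpr-6 from -0.42 to 0.022. cpr-6 in N2 on day 4 was 0.044 with library size alone, and cpr-5 in N2 on day 11 was 0.10 with it and 0.036 under upper-quartile factors. The cause was not tested.

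Over all genes, the block raised the number called from 1519 to 3856 in N2 on day 4, 4327 to 7146 on day 7, 1543 to 3817 and 4641 to 7528 in daf-2 on days 4 and 7, 293 to 663, 323 to 823, 350 to 877 and 659 to 1615 between strains on days 1, 4, 7 and 11, and 58 to 260 for strain by age. With only the groups compared the numbers were 828, 2518, 646 and 2601 in the age comparisons of days 4 and 7, 75 and 186 between strains on days 1 and 7, and 18 for strain by age. DESeq2 called 499, 535 and 1002 between strains on days 4, 7 and 11, and 171 for strain by age. Without the libraries numbered 3 the numbers were 3031 and 2323 on day 4 in N2 and daf-2, 1000 between strains on day 11 and 140 for strain by age.

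Library size alone moved the median of all genes by 0.135, 0.191 and 0.23 in N2 on days 4, 7 and 11 and by 0.202 in daf-2 on day 11, and upper-quartile scaling moved it by 0.183 and 0.202 on day 11. The share of called genes that were higher on day 11 was 53.9% in N2 and 55.3% in daf-2, 65.4% and 68.9% under upper-quartile factors, and 69.5% and 69.4% for library size alone. With library size alone it was 52.9% in place of 33.1% and 68.2% in place of 49.5% in N2 on days 4 and 7, and 57.2% in place of 45.6% in daf-2 on day 4. The mean of cpr-8 in daf-2 on day 11, 0.204 CPM, was 0.222 CPM of the whole library. Depth limits cpr-2 and cpr-8 most, with medians of 63 and 49 counts per library.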
